A study of Mus musculus with 6 samples.

Results

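The collagen genes of the mouse were followed in pancreatic islets with and without Dpy30. A gene was counted as a collagen where it is protein-coding and carries an alpha chain symbol of the form Col, number, a, number in GENCODE vM21. The rule took 44 of 54119 genes, of which 11 code for fibrillar collagens, 8 for basement membrane collagens and 25 for other collagens. Poly(A)-selected RNA came from the islets of male mice of the C57BL/6 strain, aged 24 days after birth, with 1 mouse in each library. The groups were 3 mice labelled Control and 3 labelled Dpy30 knockout, and no treatment is given for either. Dpy30 is a subunit that the enzymes methylating lysine 4 of histone H3 have in common, and the comparison asks how islet gene expression differs without it. The driver of the deletion and the deleted part of the gene are not stated in the labels, nor whether controls carry a floxed allele or a Cre, so the cells that lost Dpy30 are not known from them.

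A collagen is made of 3 alpha chains that wind into a triple helix. Fibrillar collagens assemble into the banded fibres of connective tissue, type IV collagen forms the sheet-like network of basement membranes, and the remaining types decorate fibres, form beaded filaments or span the cell membrane. Chains are hydroxylated and folded in the endoplasmic reticulum, exported, trimmed by proteases and crosslinked outside the cell. In islets the capillary wall holds the basement membrane that endocrine cells rest on, and fibroblasts, stellate cells, pericytes and endothelial cells are the usual collagen makers.

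The libraries held 17131515 to 25354384 estimated reads. The label of each library was checked on Dpy30 itself: transcripts that lack exon 4 took 0.438% to 5.24% of its reads in controls and 80.5% to 82.2% in knockouts. Endocrine markers were present in all libraries, with 10 of 10 tested. Knockout replicate 2 had the fewest reads, and across genes its deviation from the mean of the libraries ran against transcript length (Spearman's rho -0.51, against 0.02 to 0.29 in the other 5). Collagen transcripts are long: the tested collagens had a median effective length of 4979 bases, against 2223 for all tested genes.

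Of the 44 collagens, 35 had enough reads to be tested (9 fibrillar, 7 basement membrane, 19 other). Levels are given in CPM, counts scaled to a common library size by TMM, which compares libraries and not genes. In edgeR's quasi-likelihood test, with p-values adjusted by Benjamini-Hochberg over all 16430 tested genes, 6 collagens rose in knockouts and 2 fell. Of all tested genes 4.10% were higher and 5.84% lower, 9.95% in either direction. The genes that rose were Col27a1, Col15a1, Col6a1, Col6a2, Col13a1 and Col16a1, and those that fell were Col6a6 and Col9a2. Fold changes were above 0 for 27 of the 35, with a median log2 fold change of 0.69, while 50.5% of all tested genes were above 0 with a median of 0.01. The median was 0.93 for fibrillar, 0.84 for basement membrane and 0.37 for other collagens. Less collagen RNA per cell and fewer collagen-making cells, or the reverse, cannot be told apart in bulk islets.

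**Figure D1:**
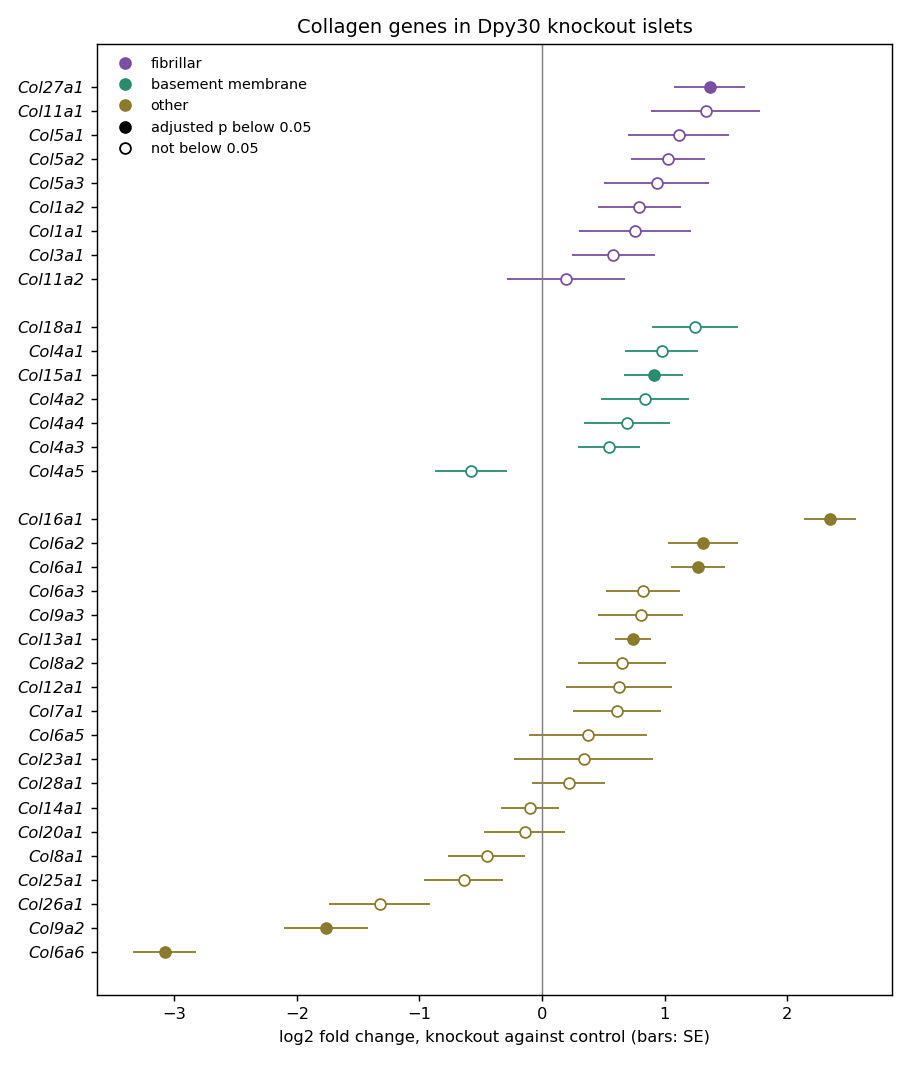
Log2 fold change of each tested collagen, knockout against control (x axis), with bars for the SE, filled points for an adjusted p under 0.05 and genes grouped by class (y axis). All 9 fibrillar collagens lie to the right of 0, and Col6a6 (-3.08) and Col16a1 (2.35) lie farthest from it on either side.

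The count depended on the fit and on single libraries. With DESeq2 11 collagens were higher and 3 lower, where 7.29% and 8.73% of all tested genes were (16.0% in all). With the replicate number as a block in edgeR, 16 were higher and 2 lower, where 6.93% and 7.86% of all genes were (14.8% in all). Without knockout replicate 2 the count was 6 higher and 1 lower, against 3.26% and 4.62% of all genes, 7.88% in either direction. Leaving out each library in turn left 2 to 6 higher and 1 or 2 lower, and Col16a1, Col6a1 and Col6a6 passed in each of the 6 fits. Scaling by library totals alone moved the median of all genes to 0.14 and their calls to 1054 higher and 674 lower, from 674 and 960, and left 5 collagens higher and 2 lower.

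The values of knockout and control libraries did not overlap for 17 of the 35 collagens. Knockouts were above controls for 12, where 17.6% of all tested genes were. They were below for 5, Col4a5, Col6a6, Col9a2, Col25a1 and Col26a1, where 17.2% of all tested genes were.

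Levels between genes were compared per length, in TPM, which divides reads by transcript length within each library. Col4a1 led the collagens in both groups, with 24.3% of all collagen TPM on average in controls and 30.8% in knockouts. Col4a2 ranked 2 and Col3a1 ranked 3 in both. In controls Col6a6 came next, at 6.64% of collagen TPM, and in knockouts it ranked 19 with 0.437%. The chains of the basement membrane network thus led islet collagen RNA in both groups, with type III first among the fibrillar chains.

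Fibrillar collagens had higher means in knockouts for 9 of 9 tested genes, and 1 of them, Col27a1, rose. Col27a1 codes for a fibrillar chain known best from cartilage. Its level was 16.9, 13.6 and 14.0 CPM in controls and 25.0, 57.0 and 32.9 CPM in knockouts. All knockouts lay above all controls, with knockout replicate 2 far above the others in CPM. Per length, knockout replicate 2 was close to replicate 3, with 5.33, 7.41 and 7.06 TPM in the knockouts. The means were 14.8 ± 1.81 and 38.3 ± 16.6 CPM (SD, n = 3), a log2 fold change of 1.37 (SE 0.29, adjusted p = 0.0250). The call held in 2 of the 6 fits that left out 1 library, with adjusted p between 0.0179 and 0.0871. It was lost without any 1 of the controls and without knockout replicate 3.

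Col1a1 and Col1a2 code for the chains of type I collagen, the main fibre of connective tissue. Col1a1 stood at 51.7, 24.5 and 61.0 CPM in controls and 68.3, 37.6 and 125.7 CPM in knockouts. Col1a2 stood at 72.5, 38.0 and 85.2 CPM in controls and 107.8, 75.4 and 156.1 CPM in knockouts. The groups overlapped for both, because control replicates 1 and 3 lay near or above knockout replicate 2. The log2 fold changes were 0.76 (SE 0.46, adjusted p = 0.324) for Col1a1 and 0.79 (SE 0.34, adjusted p = 0.178) for Col1a2, neither past the threshold.

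Col3a1, the chain of the type III collagen of vessel walls, had the highest CPM of the fibrillar genes. Controls read 176, 91.9 and 211 CPM and knockouts 234, 165 and 318 CPM. Control replicate 2 was lowest and knockout replicate 3 highest, as for the type I chains. The log2 fold change was 0.58 (SE 0.34, adjusted p = 0.303).

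The type V chains join type I fibrils and limit their width. Col5a2 read 19.0, 9.60 and 21.7 CPM in controls and 34.8, 26.8 and 40.8 CPM in knockouts. The groups did not overlap, yet the log2 fold change of 1.03 (SE 0.30, adjusted p = 0.0691) missed the threshold. For Col5a1, at 11.9, 5.38 and 16.3 CPM against 22.2, 16.3 and 34.2 CPM, the log2 fold change was 1.11 (adjusted p = 0.127). Col5a3 gave a log2 fold change of 0.93 (adjusted p = 0.199). The type XI chain Col11a2 showed no common order of libraries: knockout replicate 1 was its lowest at 3.13 CPM and knockout replicate 2 its highest at 12.2 CPM. Its log2 fold change was 0.20 (adjusted p = 0.834). Col11a1, the other type XI chain, stayed below 1 CPM on average, and Col2a1 and Col24a1 had too few reads to be tested.

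The replicate block changed most calls in this class. With it 8 of 9 fibrillar collagens passed, all but Col11a2, and all were higher, where 6.93% of all tested genes were. What the replicate numbers stand for is not labelled, so the pairing behind this block is weak. Adjusted p in that edgeR fit was 0.0320 for Col1a1, 0.0143 for Col1a2, 0.0427 for Col3a1, 0.00955 for Col5a1, 0.00993 for Col5a2 and 0.0349 for Col5a3. DESeq2 called 3 of the 9, all higher, where 7.29% of all tested genes were. The summed CPM of the fibrillar collagens ran from 190.6 to 427.1 in controls and from 398.2 to 734.7 in knockouts, so the groups overlapped.

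**Figure D2:**
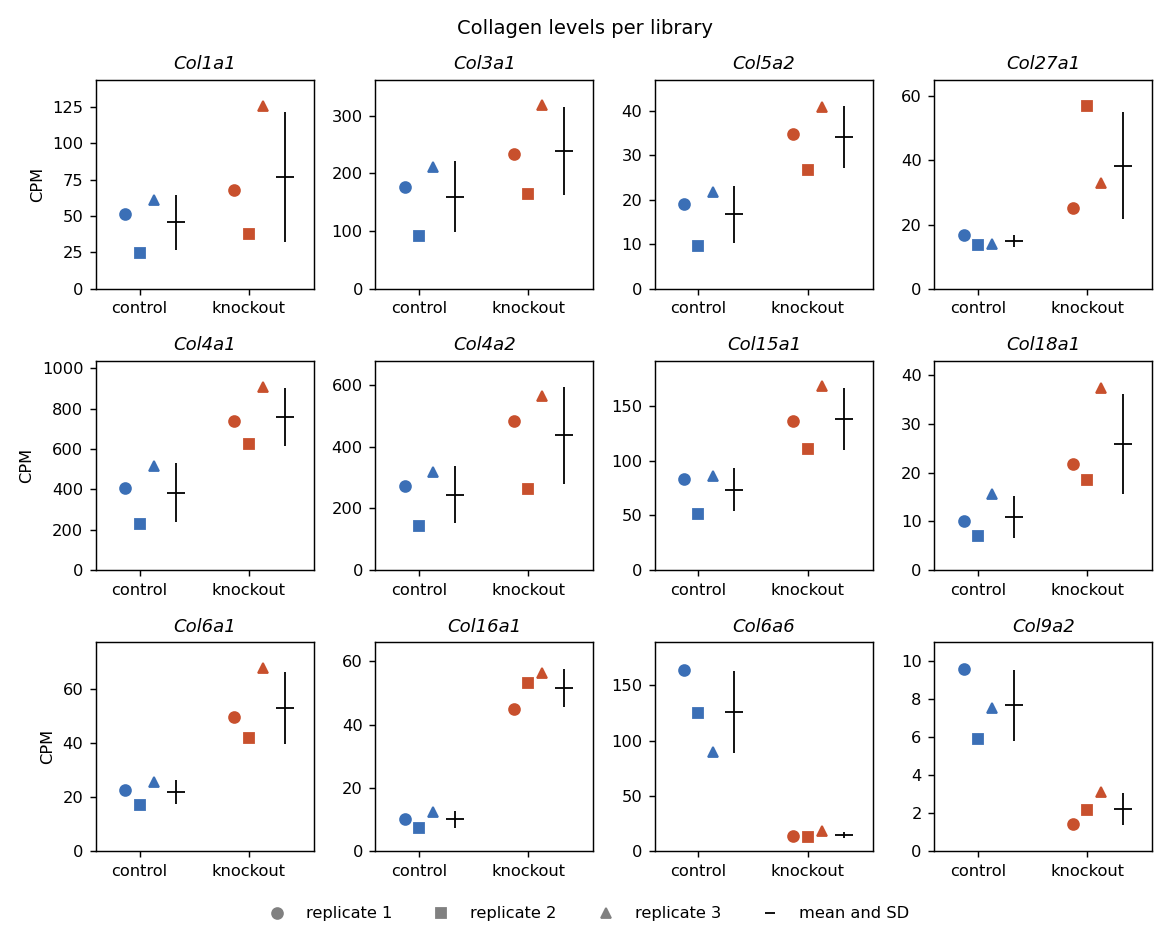
CPM of single collagen genes in the 3 control and 3 knockout libraries, 1 panel a gene; points are libraries, black marks the group mean with its SD, and each y axis starts at 0. Col16a1 was between 7.41 and 12.6 CPM in controls and between 45.0 and 56.4 CPM in knockouts, and Col6a6 was between 89.7 and 163.8 CPM in controls and between 12.9 and 18.3 CPM in knockouts.

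Basement membrane collagens had higher means in knockouts for 6 of 7 tested genes, and 1 of them, Col15a1, rose. Col15a1 codes for a collagen that carries glycosaminoglycan chains and lies where basement membranes meet the fibres around them. Controls read 83.5, 51.2 and 85.7 CPM and knockouts 135.7, 110.4 and 167.6 CPM. The groups did not overlap, and control replicate 2 was the lowest library. The means were 73.4 ± 19.3 and 137.9 ± 28.7 CPM (SD, n = 3), a log2 fold change of 0.91 (SE 0.24, adjusted p = 0.0496). That call lay at the threshold: it was lost in all 6 fits without 1 library (adjusted p 0.0544 to 0.151) and with RLE scaling, library totals or a length offset.

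Col4a1 and Col4a2 code for the chains of the type IV network found in nearly all basement membranes. Col4a1 stood at 409, 229 and 515 CPM in controls and 739.6, 623 and 907 CPM in knockouts. The groups did not overlap, and the means were 384 ± 145 and 757 ± 143 CPM (SD, n = 3). The log2 fold change of 0.98 (SE 0.30, adjusted p = 0.0776) did not pass in edgeR, while DESeq2 gave an adjusted p of 0.00682 and edgeR with the block 0.0190. Col4a2 stood at 272, 142 and 319 CPM in controls and 483, 262 and 564 CPM in knockouts. Knockout replicate 2 fell among the controls, and the log2 fold change was 0.84 (SE 0.36, adjusted p = 0.178, with the block 0.0158).

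These genes lie head to head on chromosome 8 of GRCm38, Col4a1 on the minus strand at chr8:11198423-11312826 and Col4a2 on the plus strand at chr8:11312805-11449287. Their annotated ends overlap by 22 bases. The start sites of Col4a4 and Col4a3 on chromosome 1 lay 72 bases apart and those of Col4a6 and Col4a5 on the X chromosome 1309 bases apart, also facing away from each other.

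Col18a1, whose C-terminal fragment is endostatin, read 10.1, 7.06 and 15.5 CPM in controls and 21.7, 18.4 and 37.4 CPM in knockouts. The groups did not overlap. The log2 fold change was 1.25 (SE 0.35, adjusted p = 0.0623, with the block 0.00418 and in DESeq2 0.00391). Of the chains known from kidney basement membranes, Col4a3 gave a log2 fold change of 0.55 (adjusted p = 0.206) and Col4a4 of 0.69 (adjusted p = 0.243). Col4a5 was the one gene of the class with a lower mean in knockouts, at 4.63, 3.01 and 3.33 CPM against 2.13, 2.27 and 2.93 CPM. Its groups did not overlap, and its log2 fold change was -0.58 (adjusted p = 0.241). Col4a6 had too few reads to be tested. With the block 4 of the 7 passed, Col4a1, Col4a2, Col15a1 and Col18a1, all higher, where 6.93% of all tested genes were. The summed CPM of the class ran from 438.7 to 946 in controls and from 1023 to 1692 in knockouts, without overlap.

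The other collagens held the largest changes in both directions, with 4 genes that rose and 2 that fell among 19 tested. Their summed CPM overlapped, at 250.1 to 327.6 in controls and 249.2 to 372.4 in knockouts. These sums mix both directions: Col6a6, which fell, held a large part of the control sums, with means of 126 CPM in controls and 14.9 CPM in knockouts.

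Type VI collagen forms beaded filaments around cells from 1 chain each of alpha 1, alpha 2 and an alpha 3-like chain, and Col6a3, Col6a4, Col6a5 and Col6a6 code for chains of the last kind. Col6a6 fell in knockouts by 3.08 on the log2 scale (SE 0.26, adjusted p = 0.000942). It read 163.8, 124.6 and 89.7 CPM in controls and 13.6, 12.9 and 18.3 CPM in knockouts. The lowest control was far above the highest knockout, and the means were 126 ± 37.1 and 14.9 ± 2.95 CPM (SD, n = 3), 8.44-fold lower. Col6a1 rose, with 22.8, 17.3 and 25.7 CPM in controls and 49.7, 41.8 and 67.7 CPM in knockouts (log2 fold change 1.27, SE 0.22, adjusted p = 0.0121). Both calls held in all 6 fits without 1 library. Col6a2 rose too, with 20.2, 17.5 and 27.8 CPM against 50.5, 36.3 and 75.4 CPM (log2 fold change 1.31, SE 0.28, adjusted p = 0.0269). Its call held in 2 of the 6 fits, those without control replicate 3 and without knockout replicate 2.

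Col6a3 read 17.9, 18.9 and 20.5 CPM in controls and 34.8, 18.5 and 48.0 CPM in knockouts. Knockout replicate 2 lay among the controls while the other knockouts lay above them. The log2 fold change was 0.83 (SE 0.30, adjusted p = 0.125), it passed without knockout replicate 2 (adjusted p = 0.0196), and with an offset for transcript length it turned to -0.16 (adjusted p = 0.795). The main coding transcript, Col6a3-202, took 85.1% of Col6a3 reads on average in controls and 81.8% in knockouts, with groups that overlapped. Another coding transcript, Col6a3-201, took 4.31%, 1.37% and 2.11% in controls and 10.6%, 22.2% and 10.7% in knockouts, without overlap. The retained-intron transcript Col6a3-206 took 10.5%, 16.6% and 8.93% of Col6a3 reads in controls and 4.51%, 3.41% and 3.06% in knockouts. Most collagen transcripts overlapped between groups. The exact permutation test on such shares cannot go below p = 0.1 with 3 libraries a group. Col6a5 stayed below 1 CPM on average and Col6a4 was not tested.

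Per length, the make-up of type VI RNA differed between the groups. Col6a6 held 53.6%, 45.2% and 35.0% of type VI TPM in controls and 5.01%, 6.20% and 4.64% in knockouts. Col6a1 held 16.6% on average in controls and 38.1% in knockouts, and Col6a2 17.2% and 39.0%. Col6a3 held 21.1% and 17.0%. TPM was summed over all transcripts of a gene, so the Col6a3 share includes the retained-intron transcript Col6a3-206. That transcript took 12.0% of Col6a3 reads on average in controls and 3.66% in knockouts, and its part in the share was not tested. In controls Col6a6 was thus the leading type VI chain per length, and in knockouts the alpha 1 and alpha 2 chains led.

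**Figure D3:**
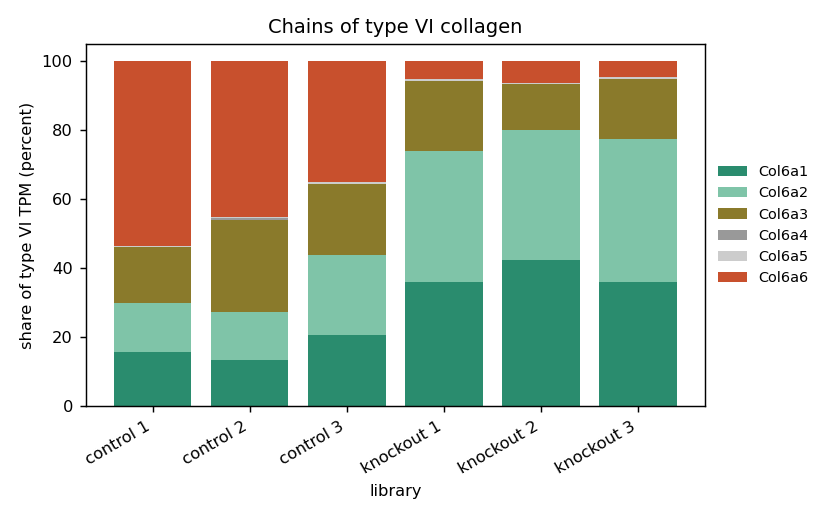
Share of type VI collagen TPM held by each chain (y axis, percent) in each library (x axis), as stacked bars that add to 100. Col6a6 held between 35.0% and 53.6% in the controls and between 4.64% and 6.20% in the knockouts.

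FACIT collagens lie on the surface of other fibres. Col16a1, one of them, rose from 10.3, 7.41 and 12.6 CPM in controls to 45.0, 53.2 and 56.4 CPM in knockouts. Knockouts were alike and far above controls, with means of 10.1 ± 2.59 and 51.5 ± 5.88 CPM (SD, n = 3), 5.10-fold higher. The log2 fold change of 2.35 (SE 0.21, adjusted p = 0.00126) was the largest increase among tested collagens and held in all 6 fits without 1 library. A transcript annotated for nonsense-mediated decay, Col16a1-209, took 0%, 29.3% and 33.2% of its reads in controls and 36.5%, 53.3% and 33.2% in knockouts, the closest values being 33.16% and 33.23%.

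Col9a2, a chain of the type IX collagen known from cartilage, fell by 1.76 on the log2 scale (SE 0.34, adjusted p = 0.0180). It read 9.60, 5.90 and 7.56 CPM in controls and 1.45, 2.21 and 3.12 CPM in knockouts, without overlap. The call held in 3 of the 6 fits and was lost without control replicate 1, control replicate 3 or knockout replicate 2 (adjusted p at most 0.0575). Of its partner chains, Col9a3 stayed below 1 CPM on average and Col9a1 was not tested. Among the other FACIT genes of at least 1 CPM none passed. The log2 fold change was 0.63 for Col12a1, -0.10 for Col14a1 and -0.14 for Col20a1, a gene that overlaps another on its strand (adjusted p 0.384, 0.825 and 0.822). Col19a1 and Col22a1 were not tested.

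Col13a1 codes for a collagen that spans the cell membrane at sites of adhesion. It rose from 21.3, 18.4 and 23.1 CPM in controls to 37.0, 37.1 and 31.0 CPM in knockouts. The means were 20.9 ± 2.37 and 35.0 ± 3.49 CPM (SD, n = 3), and the log2 fold change was 0.74 (SE 0.15, adjusted p = 0.0194). The call held in 2 of the 6 fits, those without knockout replicate 2 and without knockout replicate 3. Its reads were split mainly between Col13a1-204 and Col13a1-205. Col13a1-204 took 48.8%, 38.1% and 44.6% of its reads in controls and 55.4%, 59.4% and 54.9% in knockouts, and Col13a1-205 42.8%, 50.3% and 39.3% against 33.2%, 27.7% and 33.9%. Neither share overlapped between groups, at the smallest exact permutation p of 0.1. As parts of the same reads these shares are not independent, and those of Col13a1-201 and Col13a1-202 overlapped. How often shares separate over all transcripts was not tested, and most collagen transcripts overlapped between groups. Of the other transmembrane collagens, Col25a1 gave a log2 fold change of -0.64 (adjusted p = 0.240) with groups that did not overlap, Col23a1 stayed below 1 CPM and Col17a1 was not tested.

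The remaining collagens did not pass. Col26a1, first described in testis and ovary, read 3.09, 1.46 and 3.33 CPM in controls and 1.00, 1.39 and 0.79 CPM in knockouts. Its groups did not overlap in CPM, and the log2 fold change was -1.33 (SE 0.41, adjusted p = 0.0802, in DESeq2 0.0359). With a length offset in edgeR the Col26a1 value was -0.90 (adjusted p = 0.380). In TPM the groups overlapped, with control replicate 2 at 0.798 and knockout replicates 1 and 2 at 1.24 and 1.34. The assignment of its few reads to transcripts varied within groups: Col26a1-201 took 0%, 86.0% and 0% in controls. Col7a1, the chain of skin anchoring fibrils, read 1.19 to 1.50 CPM in controls and 1.20 to 2.45 CPM in knockouts, a log2 fold change of 0.61 (adjusted p = 0.313). With a length offset it was 2.10 (adjusted p = 0.0294), and the assignment of its few reads to transcripts varied within groups: Col7a1-201 took 100% in control replicate 1 and 0% in control replicate 2. The network-forming chains had log2 fold changes of -0.45 for Col8a1 and 0.65 for Col8a2 (adjusted p 0.392 and 0.284). Col28a1 had one of 0.22 (adjusted p = 0.679), and Col10a1 was not tested.

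The authors' deposited table lists 41 of the 44 collagens and has 10 higher and 2 lower in knockouts at an adjusted p under 0.05. It gives no adjusted p for Col2a1, Col4a6, Col6a4, Col10a1, Col19a1 and Col22a1, which thus could not be counted. The share of all genes that pass in it was not computed, so these counts stand without a background. In the authors' deposited table the 2 lower genes are Col6a6 (log2 fold change -3.00) and Col9a2 (-1.74), the same as in the edgeR fit. The 6 genes that rose here are among its 10. The others in the authors' deposited table are Col18a1 (1.08), Col4a1 (0.98), Col5a2 (0.86) and Col7a1 (1.86).

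Chains that share a molecule were compared with each other within a library, as were Col3a1 and Col1a1, which belong to different collagen types. The TPM ratio of Col1a1 to Col1a2 was 0.614, 0.558 and 0.633 in controls and 0.533, 0.527 and 0.725 in knockouts. The log2 ratio differed by -0.03 (exact permutation p = 0.8). Col4a1 to Col4a2 read 1.47, 1.68 and 1.57 in controls and 1.78, 2.41 and 1.70 in knockouts, a difference of 0.30 on the log2 scale. Those values did not overlap, and the exact p of 0.1 is the smallest this design allows (adjusted p = 0.5 over the 5 ratios). From counts in place of TPM the difference was 0.19 (exact permutation p = 0.6), and in TPM without knockout replicate 2 it was 0.14. The log2 difference was 0.10 for Col5a1 to Col5a2, -0.01 for Col6a1 to Col6a2 and -0.05 for Col3a1 to Col1a1 (exact p 0.6, 0.9 and 0.9). The partner chains of types I, V and VI thus differed between groups by less than the spread of their ratios.

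The collagens shared a pattern over libraries. Of the 35 tested genes, control replicate 2 was the lowest control for 30, and the lowest of all 6 libraries for 24. Knockout replicate 3 was the highest knockout for 26 and the highest of all 6 for 21, and knockout replicate 2 was the lowest knockout for 23. The median deviation of the fibrillar collagens from their mean over the libraries was -0.08, -1.14 and 0.06 on the log2 scale in the controls and 0.40, 0.09 and 0.82 in the knockouts. For the basement membrane collagens it was -0.19, -0.95 and -0.04 in the controls and 0.50, -0.10 and 0.77 in the knockouts. In both classes control replicates 1 and 3 thus lay close to knockout replicate 2.

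**Figure D4:**
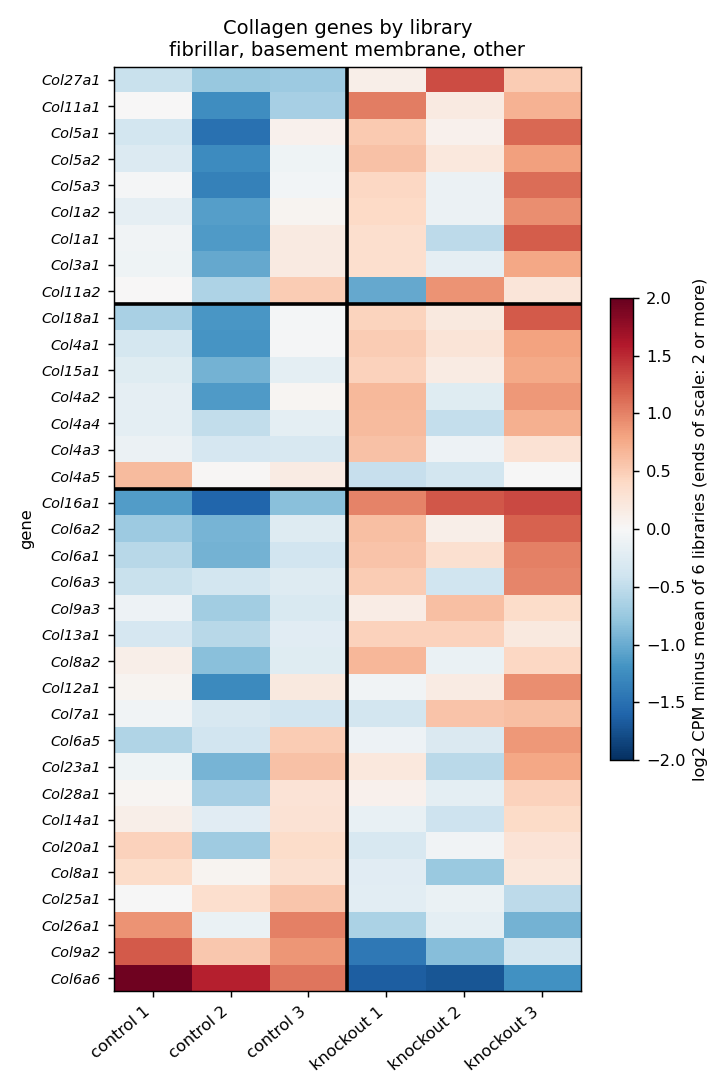
Log2 CPM of each collagen (y axis, 1 row a gene, by class) in each library (x axis) as the difference from the gene's mean over the 6 libraries, shown in colour. Control replicate 2 is low for most fibrillar and basement membrane genes (medians -1.14 and -0.95) and knockout replicate 3 is high (0.82 and 0.77).

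Markers of the cells that make collagen differed over the libraries in a like order. Fibroblast and stellate cell markers had median deviations of -0.29, -0.81 and -0.04 in the controls and 0.38, -0.04 and 1.04 in the knockouts. Of these 10 markers 9 were tested and 1 rose (Pdgfra, log2 fold change 2.22, adjusted p = 0.00748), where 4.10% of all tested genes did. The median log2 fold change of these markers was 0.98. Their summed CPM ran from 41.7 to 95.2 in controls and from 79.8 to 154.5 in knockouts, and of the list Lrrc15 had 0 reads in at least 1 library. For pericytes and smooth muscle 2 of 10 rose (Kcnj8 and Abcc9), the median was 0.65 and summed CPM ran from 277.4 to 394.0 and from 393.8 to 655.9. For endothelial cells 4 of 12 rose (Esam, Pecam1, Emcn and Plvap), the median was 0.66 and summed CPM ran from 718.1 to 886.9 and from 1007 to 1306. Of 8 Schwann cell markers 0 passed in edgeR, with 2 at an unadjusted p under 0.05, where 27.5% of all tested genes were, and 0 in DESeq2, in limma-voom and with the block. Their summed CPM was 19.7 to 38.5 in controls and 30.7 to 51.5 in knockouts. With the replicate block 4 fibroblast, 5 pericyte and 7 endothelial markers were higher, where 6.93% of all tested genes were. Without 1 library 1 fibroblast marker was higher in each fit, 0 to 3 pericyte markers and 0 to 4 endothelial markers, of which Pecam1 passed in 0 of the 6 fits. The highest pericyte and endothelial counts came without knockout replicate 2, where 3.26% of all tested genes were higher.

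Other cell types differed as well. Endocrine markers fell for 4 of 10, with a median of -0.96, where 5.84% of all tested genes fell and 4.10% rose. With the block 6 endocrine markers fell, where 7.86% of all tested genes did, and 2 to 4 fell without 1 library. Their summed CPM was 225033 to 297549 in controls and 96584 to 141612 in knockouts. Acinar markers, 9 of 10 tested, summed to 1956, 2928 and 869 CPM in controls and 4131, 1899 and 12543 CPM in knockouts. Knockout replicate 3 was highest, as for most collagens, while control replicate 2, lowest for most collagens, was the highest control. In edgeR, DESeq2 and limma-voom alike 0 acinar markers were higher and 1 lower (Bhlha15). In edgeR 6 acinar markers had an unadjusted p under 0.05, where 27.5% of all tested genes did. Of the 9 log2 fold changes of acinar markers 8 were above 0, and their median was 1.64. Of 9 tested immune markers 1 was higher (Cd68) and 1 lower (C1qa), and Cd3e had 0 reads in at least 1 library. Of 7 tested ductal markers 1 was higher and 2 lower. Their part in the collagen differences was not tested.

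**Figure D5:**
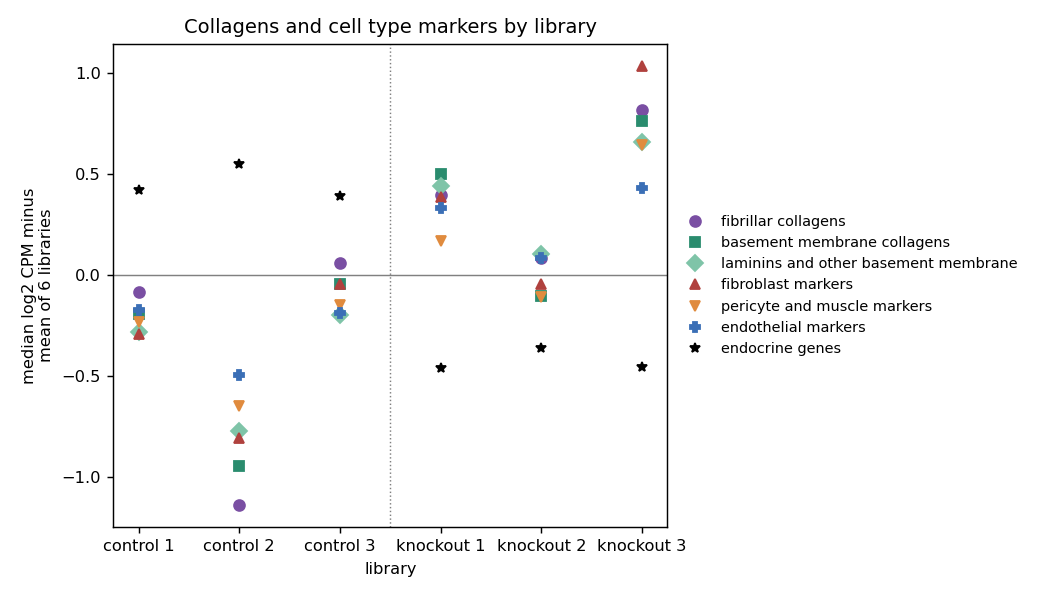
Median over each gene list of log2 CPM minus the mean of the 6 libraries (y axis), per library (x axis), for fibrillar and basement membrane collagens, other basement membrane genes and marker lists of cell types. The collagen, fibroblast, pericyte and endothelial points have their lowest value in control replicate 2 and reach their top in knockout replicate 3, and the endocrine points lie between 0.39 and 0.55 in controls and between -0.46 and -0.36 in knockouts.

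Genes that modify, fold and export collagen chains moved in both directions. Of 20, 19 were tested, 4 rose and 1 fell, where 4.10% and 5.84% of all tested genes did. The median log2 fold change of the list was 0.44. P3h2, which hydroxylates prolines mainly of type IV chains, read 3.59, 3.57 and 3.57 CPM in controls and 26.5, 20.0 and 29.7 CPM in knockouts. The controls were nearly equal and the log2 fold change was 2.83 (SE 0.20, adjusted p = 0.000741), a call that held in all 6 fits without 1 library. Plod3, a lysyl hydroxylase that also adds sugars, rose (0.76, adjusted p = 0.0184), as did Crtap, a partner of prolyl 3-hydroxylase (0.90, adjusted p = 0.0402), and the folding enzyme Fkbp14 (0.72, adjusted p = 0.0432). Mia3, which loads procollagen into export carriers, fell by 0.67 on the log2 scale (adjusted p = 0.0310). These calls were less stable: they held in 3, 1, 0 and 1 of the 6 fits in that order. Fkbp14 was named after its values were seen.

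Genes of procollagen cleavage and crosslinking did not pass, 0 of 10 tested in edgeR with group as the only term. In that fit 4 had an unadjusted p under 0.05, where 27.5% of all tested genes did. DESeq2 and limma-voom called 1 each and edgeR with the block 2, all higher. Pcolce, which speeds the removal of the C-terminal propeptide, gave a log2 fold change of 1.33 (adjusted p = 0.0517). Those of the proteases Bmp1 and Tll1 were 0.35 and 1.31 and that of the crosslinking enzyme Loxl1 was 0.79 (adjusted p 0.141, 0.148 and 0.179).

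Among 10 collagen receptor genes 2 rose and 1 fell, where 4.10% and 5.84% of all tested genes did. The collagen-binding integrin subunit Itga11 rose by a log2 fold change of 2.25 (adjusted p = 0.0131) from a level under 1 CPM, and Mrc2, a receptor that takes up collagen fragments, by 1.68 (adjusted p = 0.0290). Itga2, another collagen-binding integrin subunit, fell by 1.32 on the log2 scale (adjusted p = 0.0171). The kinase receptor Ddr1 read 222 ± 14.7 CPM in controls and 162 ± 6.08 CPM in knockouts (SD, n = 3), a log2 fold change of -0.45 that did not pass (adjusted p = 0.0674). Calls for Itga11, Mrc2 and Itga2 held in 4, 2 and 3 of the 6 fits without 1 library.

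The non-collagen genes of the basement membrane were higher on the whole. Of 16, 14 were tested, 6 rose, 0 fell, and all 14 had log2 fold changes above 0, with a median of 0.83. Of all tested genes 4.10% rose, 5.84% fell and 50.5% had log2 fold changes above 0. Lamc3, a laminin gamma chain, read 1.17, 0.86 and 1.40 CPM in controls and 4.82, 3.40 and 7.07 CPM in knockouts (log2 fold change 2.16, SE 0.36, adjusted p = 0.0109), a call that held in all 6 fits without 1 library. Nid2, which links laminin to type IV collagen, gave a log2 fold change of 1.01 (adjusted p = 0.0184). Lamc1 and Lamb1, common laminin chains, had 0.86 and 1.01 (adjusted p 0.0216 and 0.0303), and Lama4 also rose. In the fits without 1 library the list's count was 1 or 2, except 7 without knockout replicate 2, where 3.26% of all tested genes were higher. With the block the list's count was 11, where 6.93% of all tested genes were higher.

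Of 12 genes of collagen breakdown and its inhibitors 9 were tested, 2 rose and 0 fell, where 4.10% and 5.84% of all tested genes did. Ctsk, a lysosomal collagenase, read 1.63, 1.46 and 2.05 CPM in controls and 4.22, 4.85 and 5.42 CPM in knockouts (log2 fold change 1.49, SE 0.27, adjusted p = 0.0142). Mmp2, a gelatinase, gave a log2 fold change of 1.43 (adjusted p = 0.0491), a call that held in 1 of the 6 fits. The membrane protease Mmp15 and the inhibitor Timp1 had 0.74 and 0.95 (adjusted p 0.0983 and 0.239).

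Promoter sequence was compared for the 35 collagens found in the RefSeq promoter table (GRCm38.p6), which gives windows of 250 bases before to 50 after each start, 38 windows in all. The GC box core GGGCGG, on either strand, was in 23 of the 38 windows, 60.5%, against 35.7% of all 32851 windows. CCAAT was in 34.2% against 37.4% and TATAAA in 13.2% against 13.6%, both on either strand. CpG dinucleotides per window had a median of 16 for collagens that rose (7 windows) and 12 for those that fell (2 windows). The median was 13 for tested collagens that did not pass (21 windows) and 7 for all windows, which include genes not tested. It was 5 for the 8 windows of collagens not tested. The ranges overlapped: 3 to 29, 10 to 14, 0 to 37 and 0 to 16. The stretches before the start of 3 genes that rose or fell and of Col3a1, which did not pass, are shown as examples with few and many CpG. Capitals mark the TATAAA core or the GC box core, the latter on either strand, and each reads 5′ to 3′ on the gene's strand. They are chr4:63215162-63215411, plus strand, for Col27a1, with 15 CpG; chr10:61979109-61979358, minus strand, for Col13a1, with 24; chr9:105828161-105828335, minus strand, for Col6a6, with 7; and chr1:45311288-45311537, plus strand, for Col3a1, with 0.
Col27a1: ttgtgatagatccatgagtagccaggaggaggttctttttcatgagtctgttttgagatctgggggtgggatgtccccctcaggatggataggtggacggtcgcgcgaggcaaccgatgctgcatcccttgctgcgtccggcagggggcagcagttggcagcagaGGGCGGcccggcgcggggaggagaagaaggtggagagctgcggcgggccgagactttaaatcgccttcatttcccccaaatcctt
Col13a1: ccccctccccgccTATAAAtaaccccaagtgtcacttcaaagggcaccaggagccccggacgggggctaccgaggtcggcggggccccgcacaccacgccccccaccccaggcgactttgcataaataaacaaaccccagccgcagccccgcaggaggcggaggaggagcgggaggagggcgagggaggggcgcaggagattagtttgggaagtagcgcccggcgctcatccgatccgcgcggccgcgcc
Col6a6: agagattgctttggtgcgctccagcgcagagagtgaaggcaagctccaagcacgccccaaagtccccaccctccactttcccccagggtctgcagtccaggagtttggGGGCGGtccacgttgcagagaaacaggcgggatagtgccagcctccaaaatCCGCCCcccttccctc
Col3a1: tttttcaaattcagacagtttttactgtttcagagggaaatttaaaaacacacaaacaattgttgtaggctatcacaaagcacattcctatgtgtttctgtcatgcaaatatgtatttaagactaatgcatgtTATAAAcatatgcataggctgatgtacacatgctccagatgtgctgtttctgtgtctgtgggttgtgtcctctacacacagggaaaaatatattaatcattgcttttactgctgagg
The stretches of Col27a1 and Col6a6 held 1 and 2 GC boxes, and those of Col13a1 and Col3a1 held 1 TATAAA each. That of Col6a6 ends 76 bases before the RefSeq start and the others at the base before it.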

How the data were processed

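The authors deposited 1 Salmon quantification a library, which per the file headers lists estimated counts, TPM and lengths of transcripts. Trimmomatic, Salmon, DESeq2 and the builds GRCm38 and mm10 are named in the submitters' processing notes without versions. The authors' deposited table of their own comparison holds log2 fold changes and p-values, per the file headers. Their deposited signal values per gene, scaled counts, were not used.

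Transcripts were joined to GENCODE vM21 genes (139852 of 140948 matched, at least 99.63% of reads), and their estimated counts were added up by gene, then rounded. After filterByExpr (minimum count 10) and TMM scaling, edgeR 4.0.16 (R 4.3.3) gave the quasi-likelihood test, two-sided, Benjamini-Hochberg over all tested genes, threshold 0.05, group as the only term. The common biological coefficient of variation was 0.26. The procedure was tested on simulated data for the gene fits only, with counts that held no length trend. The chain ratios were not simulated. Alternatives were RLE or library totals, other filters, DESeq2 1.42.0, limma-voom 3.58.1, a replicate block, a length offset, counts in place of TPM for the chain ratios, and leaving out each library.

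Replicate numbers are shared between groups. Deviations from group means correlated at 0.427, 0.135 and 0.196 between libraries of 1 number, all above the limit set for pairing, and at -0.318 to 0.14 otherwise; what a number stands for is not labelled, so the pairing is weak. Nothing beyond separate mice is stated of replicates.

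Collagens of at least 1 CPM were named with values, and up to 4 genes of smallest p from each related list. Members and lists were chosen with earlier results of these data known. Reads of genes with near-identical copies may be split among them. The values of some genes counted in a list are not reported here.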

Additional observations from a re-analysis of the deposited data

How the results depend on the processing

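Over 31 collagens of at least 1 CPM and 14 alternatives, 381 of 434 comparisons kept direction and side of the threshold, 24 lost a call, 21 gained one and 8 turned direction. Against 1 fibrillar collagen called, there were 2 with no low count filter, 3 with DESeq2, 8 with the replicate block and 0 to 1 without 1 library. Against 1 basement membrane collagen, there were 0 with RLE or library totals, 3 with no filter, 3 with DESeq2, 4 with the replicate block and 0 without any 1 library. The 6 other collagens called ranged from 3 to 6 without 1 library. For all genes DESeq2 called 2633, the replicate block 2430, and fits without 1 library 737 to 1330, against 1634. None of the genes that turned was called with all 6 libraries: Col14a1 went to 0.047 with library totals and ran from -0.36 to 0.062 without 1 library, Col11a2 from -0.30 to 0.57, Col20a1 from -0.44 to 0.052 and Col28a1 from -0.015 to 0.42, and Col6a3 went to -0.16 with the length offset. Log2 ratio differences without 1 library ran from -0.18 to 0.050 (Col1a1 to Col1a2), 0.14 to 0.40 (Col4a1 to Col4a2), -0.045 to 0.21 (Col5a1 to Col5a2), -0.10 to 0.078 (Col6a1 to Col6a2) and -0.17 to 0.026 (Col3a1 to Col1a1). The cause was not tested. Genes of few reads and 3 libraries a group limit what could pass.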
